A study of Mus musculus with 4 samples.

Results

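The levels of 8 genes of central nervous system myelin were followed in the cortex of APPswe/PS1ΔE9 mice and wild-type controls: Mbp, Mog, Mag, Mobp, Cnp, Mal, Cldn11 and Ermn. They were taken by name, ignoring upper and lower case, from the gene symbols of the deposited transcript table, and all 8 were found among its 22919 features once transcripts had been summed by symbol. Together they covered 17 transcripts by symbol and 22 by gene identifier, of 37539 in the table. The APP group held 2 male mice aged 12 months of the APPswe/PS1ΔE9 line, which carries the 2 transgenes of its name, APP with the Swedish mutation and PS1ΔE9, and is a model of amyloid deposition. In this line the mouse prion protein promoter drives both transgenes, mostly in neurons. The WT group held 2 age-matched male C57BL/6J mice (C57BL/6 in the labels) without the transgenes. Cortical RNA of each mouse was sequenced in bulk after ribosomal RNA had been depleted, so each library is 1 mouse and n = 2 in each group. The libraries are named APP.3, APP.4, WT.1 and WT.2 after the table's columns.

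Myelin is the multilayered membrane that oligodendrocytes wrap around axons, and it speeds conduction and supplies the axon with metabolites. Its compact layers are held together by a few abundant proteins, among them myelin basic protein, while other proteins sit in the cytoplasm-rich channels, at the inner membrane facing the axon or at the outer surface. The transcripts of these proteins are made mostly by mature oligodendrocytes, and in a bulk sample a change in the number of these cells and a change in RNA per cell cannot be told apart.

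The libraries held between 28525117 and 43881196 counts. Counts on App, which the transgene can also supply, rose by 1.53 on the log2 scale in APP (SE 0.07, adjusted p = 1.89e-06 in edgeR's quasi-likelihood test). The 8 myelin genes had counts in all 4 libraries, as did 10 of 12 other genes of mature oligodendrocytes taken by symbol. By identifier 11 of the 12 were counted. Of the peripheral myelin markers Prx, Pmp2 and Ncmap, which are made by Schwann cells, none was found by symbol.

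By GENCODE M21 (GRCm38), matched by transcript identifier, the genes were placed in the mouse genome. Ermn (2, 58045113 to 58052864) and Mal (2, 127633226 to 127656695) are both on the minus strand of chromosome 2. Mag (7, 30899176 to 30914873) and Mog (17, 37010743 to 37023398) are also on the minus strand. Cldn11 (3, 31149920 to 31164324), Mobp (9, 120149707 to 120181484) and Cnp (11, 100574904 to 100591729) are on the plus strand, as is Mbp, whose position is given with its transcripts.

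Promoter sequence was read to show where these genes start and what they share there. RefSeq windows of 250 bases before the transcription start (GRCm38.p6) were read for 7 of the 8 genes, all but Mbp. They were searched on both strands for 4 short sequences read by oligodendrocyte transcription factors, the CTGGCAC core of MYRF, the ACAAAG and ACAATG cores of SOX proteins, and the CAGCTG E-box. The windows of Mag and Cnp, the genes called below, and that of Mobp, which held most matches, are shown 5′ to 3′ with the matches in capitals. Those of Cnp and Mobp are shown up to the gene's first base in GENCODE M21. In each, 35 of the 250 bases searched lie in an exon by M21.
Mag chr7:30914923-30915172, minus strand: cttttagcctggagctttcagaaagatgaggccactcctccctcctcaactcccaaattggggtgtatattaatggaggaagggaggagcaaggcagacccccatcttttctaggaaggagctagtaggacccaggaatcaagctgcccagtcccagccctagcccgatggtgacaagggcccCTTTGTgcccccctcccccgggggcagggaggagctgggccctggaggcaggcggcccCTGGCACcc
Cnp chr11:100574689-100574903, plus strand: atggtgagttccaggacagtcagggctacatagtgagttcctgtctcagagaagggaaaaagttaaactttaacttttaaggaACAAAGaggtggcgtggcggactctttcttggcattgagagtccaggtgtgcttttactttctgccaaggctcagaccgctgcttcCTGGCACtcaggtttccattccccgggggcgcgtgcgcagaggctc
Mobp chr9:120149492-120149706, plus strand: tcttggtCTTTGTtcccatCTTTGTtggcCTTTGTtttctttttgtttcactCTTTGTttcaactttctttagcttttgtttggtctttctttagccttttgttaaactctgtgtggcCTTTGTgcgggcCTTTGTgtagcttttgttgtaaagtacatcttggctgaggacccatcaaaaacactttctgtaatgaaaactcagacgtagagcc
The MYRF core was found in 2 of the 7 windows, Mag and Cnp, and in 4.19% of all 32851 windows in the RefSeq table. The ACAAAG core was found in 3 windows, with 6 matches in Mobp, and in 16.5% of all. ACAATG was found in 1 window, that of Ermn, against 10.7% of all, and the E-box in 0 of 7 against 13.0%. Of 3 RefSeq starts of Mag the outermost was used, which lies 595 bases from the start of Mag-201, the most counted Mag transcript. The RefSeq window nearest to that start, 6 bases from it, held 0 matches, and the other Mag window, which overlaps the one shown, held 2. A match is a description of the letters in the window and not of binding.

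Both APP libraries lay above both WT libraries in all 8 genes. The fitted log2 fold change of APP over WT ran from 0.29 for Mbp to 0.72 for Mag, with a median of 0.45, or 1.36-fold, against a median of 0.00 over all features tested. Only Mag, the adhesion protein that faces the axon, and Cnp, an enzyme of the cytoplasm-rich channels, rose past an adjusted p of 0.05 in edgeR's quasi-likelihood test, that is 2 of 8, where 1.16% of all features were higher at this threshold. Mag alone also reached the fold change of 1.5 used by the study, against 0.921% of all features. Groups with APP wholly above WT were found in 21.1% of all features, and 18.3% of those at or above the mean level of Mog, the lowest of the 8. The order APP.3, APP.4, WT.2, WT.1, from high to low, was found in 8 of the 8 genes and in 4.65% of all features. Mag and Cldn11 are among the mRNAs that the study listed as changed in these same libraries, so their direction here is not independent evidence.

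**Figure D1:**
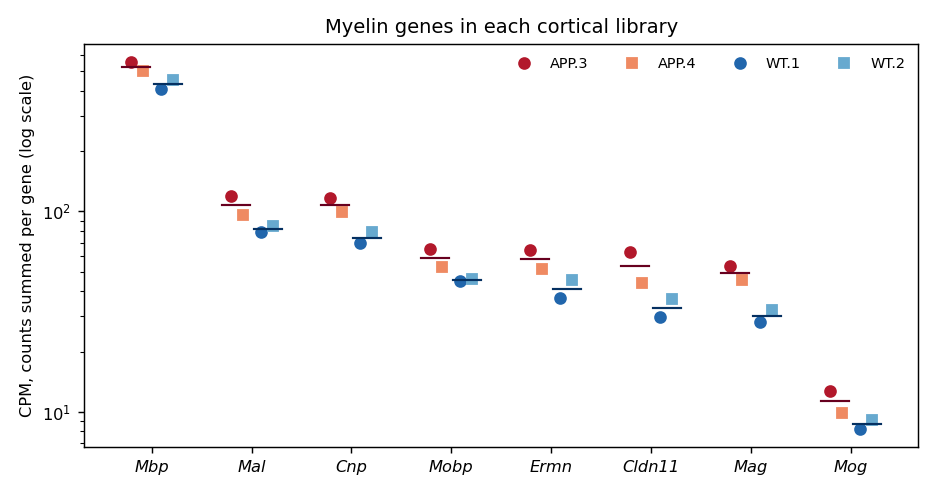
Level of the 8 myelin genes in each library, in CPM (counts of the gene scaled to library size) on a log axis. Points are single libraries and short lines are group means (n = 2). In each gene both APP points lie above both WT points, and the APP.3 point is the highest.

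Mbp encodes myelin basic protein, which binds the cytoplasmic faces of the membrane together. Its level was 554 and 499 CPM in APP.3 and APP.4, against 410.0 and 449.8 CPM in WT.1 and WT.2, the highest of the 8 genes. The gap between the groups, from 449.8 to 499 CPM, was of about the same size as the gaps within them. The mean was 526 ± 39.0 CPM (SD, n = 2) in APP and 430 ± 28.1 in WT, with a log2 fold change of 0.29 (SE 0.07), which did not pass the test (edgeR's quasi-likelihood test, adjusted p = 0.107).

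Mobp encodes a small basic protein of compact myelin. By symbol its level was 65.1 and 52.8 CPM in APP.3 and APP.4, against 44.8 and 46.0 CPM in WT.1 and WT.2. The WT libraries lay close together and APP.3 stood apart from APP.4. The log2 fold change was 0.38 (SE 0.10, adjusted p = 0.127, edgeR's quasi-likelihood test). The transcript with most Mobp counts, Mobp-204, which is annotated as subject to nonsense-mediated decay, has no symbol in the table. With it, the sum by gene identifier was 324 and 280.3 CPM in APP.3 and APP.4 and 221 and 227 in WT.1 and WT.2, and Mobp rose by 0.43 (SE 0.08, adjusted p = 0.0330, edgeR's quasi-likelihood test). Among sums by identifier 1.11% of all features were higher past the threshold, among them Mag, Cnp and Mobp.

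Mal encodes a proteolipid of lipid rafts that takes part in the sorting of membrane proteins to myelin. Its level was 119 and 96.0 CPM in APP.3 and APP.4, against 78.9 and 84.2 CPM in WT.1 and WT.2. APP.4 was nearer to the WT libraries than to APP.3. The log2 fold change was 0.40 (SE 0.10, adjusted p = 0.0971, edgeR's quasi-likelihood test).

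Cnp encodes the cyclic nucleotide phosphodiesterase that keeps cytoplasmic channels open within myelin. Its level was 116 and 98.8 CPM in APP.3 and APP.4, against 69.4 and 78.6 CPM in WT.1 and WT.2. The groups were separated by a wider gap than the one between the APP libraries or between the WT libraries. The mean was 108 ± 12.4 CPM (SD, n = 2) in APP and 74.0 ± 6.45 in WT, and Cnp rose by 0.54 on the log2 scale (SE 0.09, adjusted p = 0.0178, edgeR's quasi-likelihood test).

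Mag encodes myelin-associated glycoprotein, a lectin of the membrane next to the axon. Its level was 53.5 and 45.3 CPM in APP.3 and APP.4, against 28.0 and 32.1 CPM in WT.1 and WT.2. The lower APP library stood 1.41 times above the higher WT library, a wider gap than within either group. The mean was 49.4 ± 5.76 CPM (SD, n = 2) in APP and 30.1 ± 2.86 in WT, and Mag rose by 0.72 (SE 0.10), or 1.64-fold, with an adjusted p of 0.00708 in edgeR's quasi-likelihood test.

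Cldn11 encodes the claudin of the tight junctions that seal the myelin sheath. Its level was 62.7 and 44.0 CPM in APP.3 and APP.4, against 29.7 and 36.6 CPM in WT.1 and WT.2. APP.3 was 1.43 times APP.4, the widest spread within APP of the 8 genes. Its log2 fold change of 0.68 (SE 0.15) was past the 1.5-fold cut-off, but its adjusted p of 0.0604 in edgeR's quasi-likelihood test was not past 0.05.

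Ermn encodes ermin, an actin-binding protein of mature oligodendrocytes. Its level was 64.0 and 51.9 CPM in APP.3 and APP.4, against 36.9 and 45.5 CPM in WT.1 and WT.2. The 2 libraries of each group differed by the same ratio, 1.23. The log2 fold change was 0.49 (SE 0.12, adjusted p = 0.0947, edgeR's quasi-likelihood test).

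Mog encodes the immunoglobulin-like glycoprotein of the outermost myelin surface. Its level was 12.7 and 9.88 CPM in APP.3 and APP.4, against 8.27 and 9.16 CPM in WT.1 and WT.2, from 306 to 368 counts a library. APP.4 lay only slightly above WT.2. The log2 fold change was 0.37 (SE 0.14, adjusted p = 0.315, edgeR's quasi-likelihood test), the largest adjusted p of the 8.

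The calls depended on single libraries. With WT.1 left out, 0 of the 8 genes had an adjusted p under 0.05 in edgeR's quasi-likelihood test, where Mag had 0.152 and Cnp 0.364, and with WT.2 left out Mag alone did (0.0305), while Cnp had 0.0785. With APP.3 left out 6 genes did, all but Mog and Mobp, and with APP.4 left out all 8 did. Over all features, 308 were called with every library, 53 without WT.1, 84 without WT.2, 1903 without APP.3 and 1341 without APP.4. A group with 1 library is then assumed to vary like the other group. The 8 log2 fold changes stayed positive in each of these fits. That sign was largely fixed in advance, since both APP libraries lay above both WT libraries in all 8 genes.

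Per kilobase of transcript, with transcripts taken by identifier, the order of levels was Mbp, Mobp, Mal, Cnp, Cldn11, Mag, Ermn and Mog in every library. Mbp ran from 176 to 249 CPM per kilobase, Mobp from 89.1 to 132, Mal from 41.7 to 62.2 and Cnp from 30.5 to 51.8. Cldn11 ran from 15.9 to 33.7, Mag from 13.0 to 24.7, Ermn from 10.1 to 17.7 and Mog from 4.85 to 7.51. The ranges of neighbours in this order overlapped over the 4 libraries from Mal to Ermn. Those of Mbp, Mobp and Mog did not overlap with their neighbours. The place of Mobp depended on Mobp-204. By symbol, and so without that transcript, Mobp ran from 21.9 to 31.8 and overlapped with Cnp, Cldn11 and Mag.

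**Figure D2:**
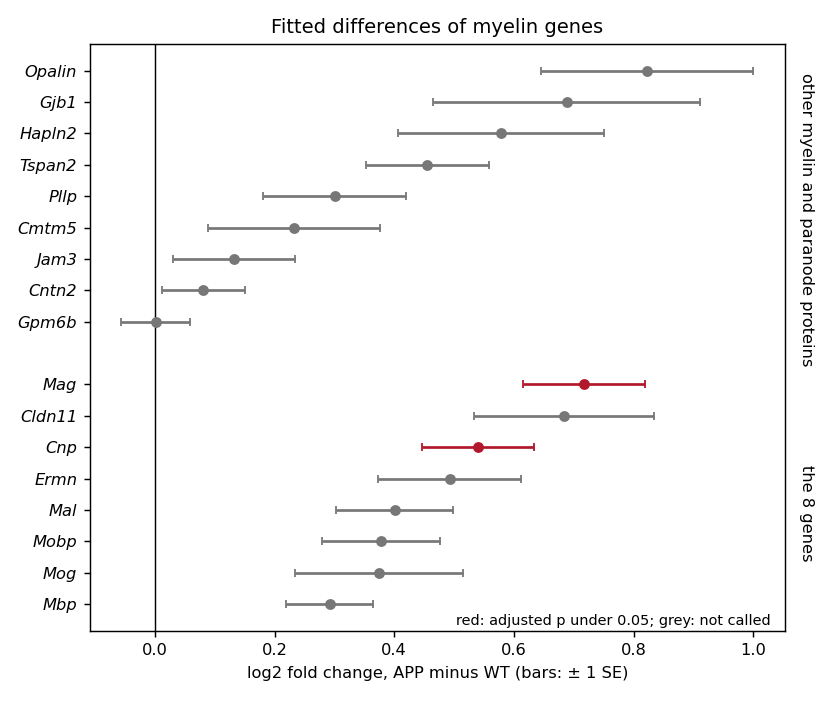
Log2 fold change of APP over WT for the 8 myelin genes and for 9 other myelin and paranode proteins, with bars of 1 SE from edgeR's quasi-likelihood fit. Red points have an adjusted p under 0.05. Mag and Cnp are red, and Mbp has the smallest value of the 8, 0.29.

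Of 10 other proteins of myelin and of the paranode, where myelin loops meet the axon, 9 were counted by symbol. Their fitted log2 fold changes were all above 0, as were those of 50.8% of all features, with a median of 0.30, and 7 of the 9 had both APP libraries above both WT libraries. At an adjusted p under 0.05 in edgeR's quasi-likelihood test 0 were called, and 5 were under 0.05 unadjusted. Opalin, a glycoprotein of oligodendrocytes that the study also listed as changed in these libraries, had the largest value, 0.82 (SE 0.18), and the gap junction protein Gjb1 had 0.69 (SE 0.22), both at under 8 CPM. Hapln2, a link protein of nodes, had 0.58, the tetraspanin Tspan2 had 0.46, plasmolipin (Pllp) had 0.30 and Cmtm5 had 0.23. The adhesion molecules Jam3 and Cntn2 had 0.13 and 0.08, and Gpm6b, a membrane protein that neurons and astrocytes also make, had 0.00. By identifier all 10 were counted, 9 of them above 0, and Omg had 0.07.

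Genes for the lipids of myelin and for the regulators of oligodendrocytes gave no call. Of 7 lipid enzymes counted, 6 had values above 0, from Degs1 at -0.03 to Fa2h, the fatty acid hydroxylase of myelin galactolipids, at 0.67, with 0 called at an adjusted p under 0.05 and 4 under 0.05 unadjusted in edgeR's quasi-likelihood test. The 5 transcription factors counted by symbol were all above 0, from Zfp536 at 0.11 to Nkx6-2 at 0.56. Of these 0 were called and 2 were under 0.05 unadjusted. By identifier 7 were counted, 6 of them above 0, and again 0 were called. There Zfp488 had -0.04 and Myrf had 0.52 (adjusted p = 0.0988, edgeR's quasi-likelihood test). Zfp488 stood at 445 to 466 CPM by identifier, against 6.88 to 10.4 CPM for Myrf. Whether all counts placed on Zfp488 are its own was not tested. Of 10 other genes of mature oligodendrocytes 3 rose. Trf, transferrin, rose by 0.94 (adjusted p = 0.00057), Bcas1 by 0.46 (adjusted p = 0.0134) and Gsn, the actin-severing protein gelsolin, by 0.46 (adjusted p = 0.0382), all in edgeR's quasi-likelihood test, and the lowest value was that of Enpp2, -0.06. In the sum by identifier Gsn was not called (adjusted p = 0.0506, edgeR's quasi-likelihood test). Trf stayed past the threshold with each library left out, whereas Bcas1 and Gsn did not without WT.1 or without WT.2. Of 7 precursor markers 0 were called, 2 were under 0.05 unadjusted and 6 were above 0. Their median was 0.14, and they ran from Bmp4 at -0.45 to Cspg4, the NG2 proteoglycan, at 0.33.

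**Figure D3:**
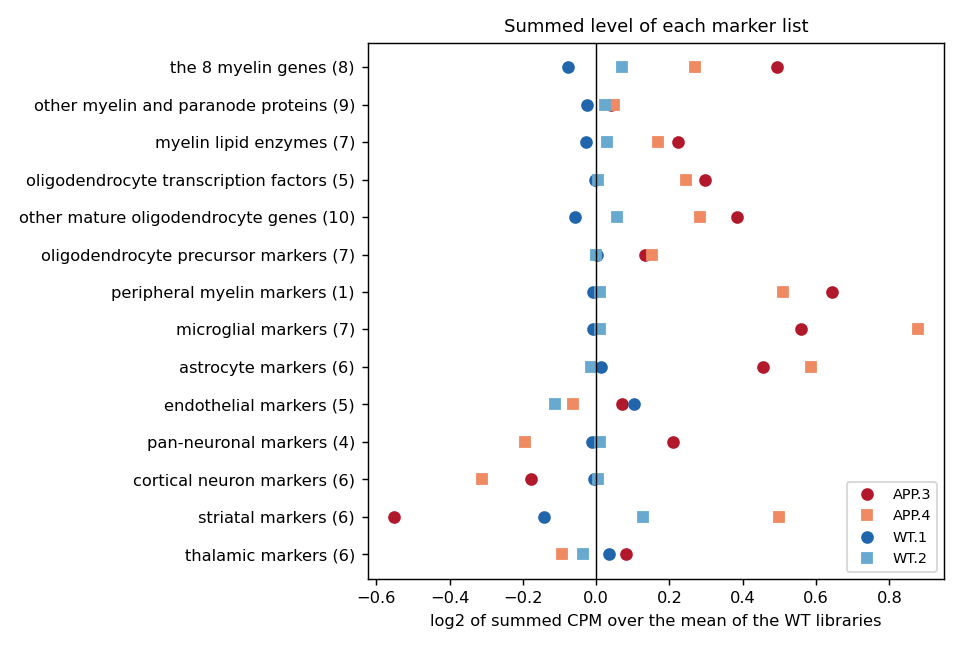
Summed CPM of each gene list in each library, as log2 of its ratio to the mean of the WT libraries, with the number of genes counted in brackets. The 8 myelin genes were highest in APP.3, the microglial and astrocyte markers in APP.4, and the striatal markers were lowest in APP.3 and highest in APP.4.

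Some markers of microglia and astrocytes also rose in APP. Of 7 microglial markers 5 rose, C1qa, Csf1r, Cx3cr1, P2ry12 and Aif1, from 0.52 for P2ry12 to 1.09 for C1qa, a chain of the first complement component (adjusted p from 0.000738 to 0.0324, edgeR's quasi-likelihood test). The lowest value was that of Tmem119, 0.31, with overlapping groups (adjusted p = 0.572). In the sums by identifier P2ry12 and Aif1 were not called (both adjusted p = 0.0509), which left 3 of 7. The summed level of the 7 was 215 to 268 CPM in APP and 145 to 147 in WT. Of 6 astrocyte markers 2 rose, Gfap, the filament protein of reactive astrocytes, by 2.82 and Aqp4 by 0.73 (adjusted p = 0.000926 for Aqp4, edgeR's quasi-likelihood test), and the lowest was Aldh1l1 at 0.10. Their sum was 1642 to 1798 CPM in APP and 1187 to 1209 in WT. In both lists APP.4 was above APP.3, the reverse of the 8 myelin genes, whose sum was 1047 and 898 CPM in APP.3 and APP.4, against 706 and 782 CPM in WT.1 and WT.2. Of the genes in these 2 lists C1qa and Gfap were still called without WT.1, and C1qa, Cx3cr1, Gfap and Aqp4 without WT.2.

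Markers of neurons and of neighbouring regions were also counted, since a dissection of cortex can carry white matter, striatum or thalamus. The 6 cortical neuron markers counted all had values below 0, from Cux2 at -0.29 to Neurod6 at -0.02, with 0 called and 3 under 0.05 unadjusted in edgeR's quasi-likelihood test. Their sum was 487 to 534 CPM in APP and 602 to 607 in WT. The 6 striatal markers summed to 234 and 484 CPM in APP.3 and APP.4, against 310.5 and 375 CPM in WT.1 and WT.2, so APP.3 and APP.4 stood at opposite ends and the WT libraries between them. None of the striatal markers was called, and 0 were under 0.05 unadjusted. They ran from Adora2a at -0.29 to Rgs9 at 0.27.

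Of the other lists, 6 thalamic markers ran from Lef1 at -0.31 to Tcf7l2, which precursors and newly formed oligodendrocytes also make, at 0.93, with 0 called and 3 under 0.05 unadjusted (edgeR's quasi-likelihood test). The thalamic median was 0.37, against 0.45 for the 8 myelin genes, and 4 of the 6, Tcf7l2, Prkcd, Slc17a6 and Cbln1, had both APP libraries above both WT libraries. The thalamic sum, most of it Rora, was 252.6 CPM in APP.3 and 224 in APP.4, on either side of the WT sums of 233 and 245. The endothelial markers ran from Cdh5 at -0.28 to Slco1a4 at 0.08, and the pan-neuronal ones from Snap25 at -0.13 to Syt1 at 0.39, with 0 called and 0 under 0.05 unadjusted in either (edgeR's quasi-likelihood test). The peripheral myelin marker counted, Pmp22, which the brain also makes, rose by 0.58 (adjusted p = 0.0377, edgeR's quasi-likelihood test), and this was lost without WT.1 or without WT.2 and in the sum by identifier. Every marker counted by symbol had at least 20 counts in each library. By identifier the peripheral myelin marker Ncmap was also counted, with 2 to 10 counts a library and a log2 fold change of -0.14. The part of microglia, astrocytes and dissected regions in the values of the myelin genes was not tested.

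Transcript by transcript, 4 of the 17 found by symbol rose past an adjusted p of 0.05 in edgeR's quasi-likelihood test, where 0.938% of all transcripts were higher at this threshold. Each was the transcript of its gene with most counts. Mag-201 rose by 0.72 (adjusted p = 0.0015), Cnp-201 by 0.53 (adjusted p = 0.00671), Cldn11-201 by 0.69 (adjusted p = 0.0206) and Mbp-201 by 0.36 (adjusted p = 0.0251). Mag-201 and Cldn11-201 have the same counts as the sums of their genes by symbol, so they add no new data. The same Cldn11 counts had an adjusted p of 0.0604 when tested among gene sums with edgeR's quasi-likelihood test. Of the transcripts without a symbol Mobp-204 also rose, by 0.45 (adjusted p = 0.0060), from 175 and 181 CPM in WT.1 and WT.2 to 261 and 226 in APP.3 and APP.4. None of these 5 was called without WT.1, and Mag-201 alone without WT.2. Of the 22 transcripts by identifier, 20 had a fitted value above 0, and 16 had both APP libraries above both WT libraries, against 19.9% of all transcripts. The most counted transcripts of the other genes had 0.40 for Mal-202, 0.49 for Ermn-201, 0.38 for Mog-201 and, by symbol, 0.41 for Mobp-201, none past the test.

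Mbp held the exception. The gene lies on chromosome 18 (GRCm38, 82475146 to 82585637, plus strand) and has an upstream start, from which the golli proteins are made, as well as the start of the classic myelin basic proteins. Mbp-201, Mbp-205 and Mbp-208 all begin at the upstream start, at 82475162, 82475146 and 82475148, so a comparison of Mbp-205 with Mbp-201 does not compare the upstream start with the classic one. Mbp-201 has 590 of its 2492 bases before the first base of Mbp-204, which begins inside the gene at 82554513. Of Mbp-205, which ends at 82558703, before the last exons of Mbp-201, 3955 of the 4797 bases belong to no other counted Mbp transcript. Its counts were 1511 for APP.3 and 1643 for APP.4, against 2552 for WT.1 and 2194 for WT.2, which scale to 52.5, 52.7, 57.9 and 62.0 CPM. Both APP libraries were below both WT libraries, in contrast to the Mbp sum, as in 18.6% of all transcripts. Its log2 fold change of -0.19 (SE 0.08) did not pass the test (adjusted p = 0.496, edgeR's quasi-likelihood test).

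**Figure D4:**
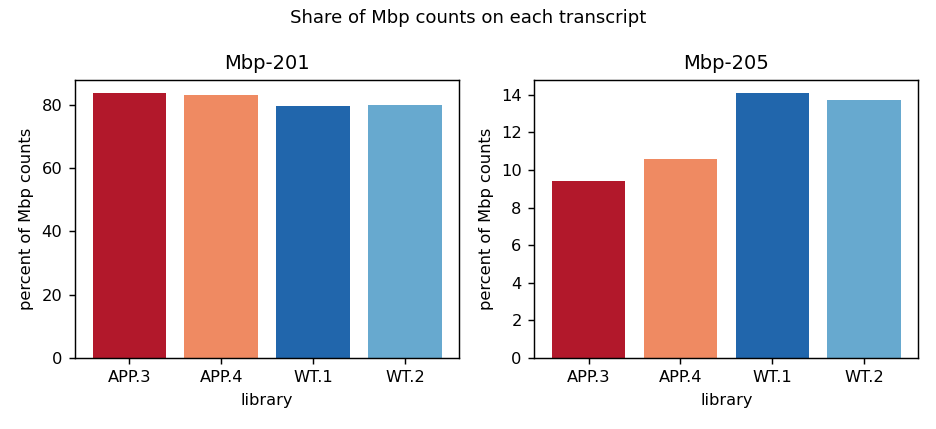
Percent of the counts on all Mbp transcripts that fell on Mbp-201, at left, and on Mbp-205, at right, in each library, with axes from 0. Mbp-205 took 9.43% and 10.6% in APP.3 and APP.4 and 14.1% and 13.7% in WT.1 and WT.2.

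The share of Mbp-205 in all Mbp counts was 9.43% and 10.6% in APP.3 and APP.4, against 14.1% and 13.7% in WT.1 and WT.2. For each count on it there were 8.89 and 7.83 counts on Mbp-201 in APP.3 and APP.4 and 5.64 and 5.82 in WT.1 and WT.2. The groups did not overlap in this ratio. Relative to the other Mbp transcripts Mbp-205 was lower in APP by 0.48 on the log2 scale in edgeR's test of transcript shares (log2 value -0.48, unadjusted p = 0.000733), but with adjustment over 20587 transcripts it did not pass (adjusted p = 0.593). No transcript of the myelin genes passed that test, of 13 in it, and Mbp-205 was the 1 with an unadjusted p under 0.05, while 0.0243% of all transcripts passed. With limma's test of the same question 0 of the 13 passed and 2 were under 0.05 unadjusted, while 0.0777% of all transcripts passed, and Mbp-205 had an adjusted p of 0.244.

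Mbp-201 shares all but 8 of its 2492 bases with other counted Mbp transcripts. Counts on it therefore depend on how shared reads were assigned, which is not given in the sources used here. Mbp-205 and Mbp-208 have most of their bases to themselves among the counted Mbp transcripts. Without them the Mbp sum, which still held Mbp-201, had a log2 fold change of 0.36 (SE 0.08, adjusted p = 0.0521, edgeR's quasi-likelihood test). With them it was 0.29. In Mal, Cnp and Mobp the shares moved little between libraries. Mal-202 took 89.2% to 90.6% of Mal counts, Cnp-201 took 86.1% to 88.4% of Cnp counts, and Mobp-204 took 79.7% to 81.2% of Mobp counts by identifier. Mag-201 took 92.1% to 94.2% of Mag counts, and Mog, Cldn11 and Ermn each had 1 transcript in the table. The shares in Mal, Cnp and Mag also depend on how shared reads were assigned. Of bases found in no other counted transcript of the gene, Mal-201 has 0, Cnp-201 165 of 2357 and Mag-201 6 of 2419.

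The 5 features outside the 8 genes whose levels over the 4 libraries were most like their mean profile were mostly of low count. Likeness was the root mean square distance between log2 CPM values centred on their mean, over 16516 features with a mean of at least 1 CPM. The distances ran from 0.0226 to 0.0321, closer to the mean profile than any of the 8 genes themselves, which lay between 0.0378 for Cnp and 0.128 for Cldn11. By identifier, these 5 were transcripts of Smchd1, Fsbp and Dock10 without a symbol, a feature that M21 assigns to Lipo3 and one that it assigns to Pde8a. None was in a list used here, none was called, and their levels were between 0.841 and 11.8 CPM. With 4 libraries many features share such a profile.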

How the data were processed

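RNA was extracted from the cortex, depleted of ribosomal RNA and sequenced as strand-specific paired reads. The authors dropped ribosomal pairs, mapped the others to Ensembl mouse RNAs by FANSe2, allowing mismatches, and deposited raw counts of reads on each transcript, with at least 10 over the libraries. The submitters' processing notes name CASAVA 1.8 and edgeR. The Ensembl release and the handling of shared reads are not given in the sources used here, and the human build in the notes does not match a mouse series. The deposited fold changes, p-values and FDR of the authors' own comparison were left out, as were 4 more columns with per-library values.

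The 2 WT columns were matched to mice by number, and the 2 APP columns, numbered otherwise than in the titles, only to their group. Counts were summed by gene symbol ignoring case, since most symbols are in capitals (only 2 of the 8 were spelled as given). Symbols are blank for 8274 transcripts, so sums by GENCODE M21 identifier, which covered 98.2% of transcripts, were an alternative. Coordinates are from M21.

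Groups were compared in R 4.3.3 with edgeR 4.0.16 (quasi-likelihood test, TMM, no covariate, Benjamini-Hochberg over 22919 features or 37539 transcripts, FDR 0.05, fold change 1.5). The common dispersion was 0.00781. With 2 mice per group an exact permutation test cannot give a p below 0.333, so adjusted p-values rest on the spread shared between genes. CPM uses TMM library sizes, and values after ± are SDs over 2 libraries. Each SE is the size of the log2 fold change divided by the square root of the quasi-likelihood F statistic. Transcript shares were tested with diffSpliceDGE. DESeq2 1.42.0 and limma 3.58.1 served as alternatives, and Python 3.11.15 with pandas 2.3.3, numpy 2.4.6 and matplotlib 3.10.9 made tables and plots. The tests were checked on simulated counts. Reads carry no molecular identifiers, so counting limits cover counting error only.

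The 8 genes and all gene lists were chosen with earlier results of these data known, and no list was tested as a set. A few genes of these lists are not reported here and are in none of their counts or sums. Named are the 8 genes, the other myelin and paranode proteins, the highest and lowest of each other list, the 5 features most like the mean profile, each gene's most counted transcript and any transcript past the share test. The other called markers, Bcas1, Gsn, Csf1r, Cx3cr1, P2ry12, Aif1 and Aqp4, were named after their values were seen. So were Prkcd, Slc17a6, Cbln1, Rora, Zfp488, Myrf, Mbp-204, Mbp-205, Mbp-208 and Mobp-204. The sum of Mbp without Mbp-205 and Mbp-208, the share test by identifier or with limma, and the transcripts by identifier were alternatives added after seeing the data.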

Additional observations from a re-analysis of the deposited data

How the results depend on the processing

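With every library kept, 96 values of the 8 genes under other settings all stayed above 0. That sign was largely fixed in advance, since both APP libraries lay above both WT libraries. Not all of the 96 are separate values. Leaving out Mbp-205 and Mbp-208 changes no counts of the other genes. The most counted transcript of Mog, Mag, Cldn11 or Ermn has the same counts as the sum by symbol. Of the 96, 81 stayed on the same side of the adjusted p threshold, 15 passed it newly and 0 were lost. The tests differed on which genes passed. Cldn11 had an adjusted p of 0.0018 in edgeR's exact test and 0.442 with DESeq2. For Mbp these were 0.202 and 0.0497. Genes called, 2 in edgeR's quasi-likelihood test, became 5 with DESeq2, 6 with edgeR's exact test, 6 with its likelihood ratio test and 4 with the most counted transcript in place of the sum. Genes past both cut-offs, 1, became 2 with the exact test, the likelihood ratio test, protein-coding transcripts only or the most counted transcript, each adding Cldn11. Transcripts called, 4, became 8 with the likelihood ratio test and 3 with at least 10 counts in every library, where Mbp-201 was lost (adjusted p = 0.0613, edgeR's quasi-likelihood test). The share of all features or transcripts called by DESeq2, the exact test or the likelihood ratio test is not given here. Whether the higher counts under those tests are particular to the myelin genes therefore cannot be told. Leaving out each library in turn gave between 0 and 8 genes called, 0 and 4 past both cut-offs, 0 and 13 transcripts called, and a median log2 fold change from 0.28 to 0.59. The lowest counts came without WT.1 and the highest without APP.4, and the cause was not tested. Other scalings, a minimum of 10 counts in every library and the earlier quasi-likelihood method left the calls at 2 genes. Sums by identifier and protein-coding transcripts only each gave 3. No pairing of APP with WT mice is described in the sources used here, so no paired analysis was made. No column number is shared between the groups. Depth limits Mog most, with the fewest counts.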
